A study of Oryctolagus cuniculus with 3 samples.

Results

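The nuclear genes of the mitochondrial respiratory chain were examined by complex in day 6 rabbit embryos whose morulae had been slow-frozen or vitrified. Members were all genes in the deposited value table whose symbol starts with NDUF, SDHA to SDHD, UQCR, CYC1, COX4 to COX8 or ATP5. They numbered 54 of the 6772 named genes, with 193 probes. The symbols gave 26 genes for complex I, 3 for complex II, 6 for complex III, 8 for complex IV and 11 for complex V. A further 2 genes of the array that match the rule, SDHAF1 and NDUFA4L2, are not in the value table. Each gene is given by 1 value, that of its brightest probe. Of the 54 genes, 44 encode subunits, and 10 share the prefix without being subunits of that complex. These 10 are 6 complex I assembly factors (NDUFAF2 to NDUFAF7), 2 complex II assembly factors (SDHAF2 and SDHAF3), the ATP synthase inhibitor ATP5IF1, and NDUFA4, which is counted with complex IV today.

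The frozen embryos came from morulae recovered on day 3 after artificial insemination, slow-frozen and transferred to recipient does. The vitrified embryos came from morulae of the same age, vitrified in dimethyl sulphoxide and ethylene glycol and likewise transferred. Both were collected on day 6 as late blastocysts, so both groups had been stored at low temperature, and fresh embryos were not analysed here. The strain, the sex and the number of embryos per sample are not given in the sources used here. Each of 3 Agilent arrays with 2 colours held 1 frozen and 1 vitrified sample, and the dyes were exchanged on replicate 2.

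The chain passes electrons from NADH (through complex I) and succinate (through complex II) to ubiquinone, then through complex III and cytochrome c to complex IV, which reduces oxygen. Complexes I, III and IV pump protons across the inner mitochondrial membrane, and complex V, the ATP synthase, uses the gradient to make ATP. Most subunits are nuclear genes, while a small set is encoded in mitochondrial DNA. Oxygen use increases as the mammalian embryo forms a blastocyst, where ion pumping that fills the cavity consumes much ATP.

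Each value is the log2 ratio of the frozen to the vitrified channel, so a positive value means a higher signal after slow freezing. The direction of the replicate 2 column is likely but not stated. It rests on 10 spike-in probes, whose ratios correlated at -1.0 with those of replicate 1 and at 0.99 between replicates 1 and 3. Over all probes of the table the ratios correlated at -0.36 between replicates 1 and 2, at 0.48 between replicates 2 and 3 and at -0.01 between replicates 1 and 3. On replicates 1 and 3, whose scanner files were used, each of the 22839 tested probes was well above background in the frozen and in the vitrified channel, and 0 were saturated. The number of arrays limits the precision, and nothing in the labels says whether the biological replicates were separate pools of embryos, so p-values measure the spread between these arrays alone. RNA of whole embryos was measured, so fewer cells of a type and less RNA per cell cannot be told apart.

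No gene of the chain passed the test. With limma over 3 arrays, 0 of 22839 probes passed a Benjamini-Hochberg adjusted p of 0.05 (0%). The lowest adjusted p was 0.55 over all probes and 0.9999 among the 54 genes. At an unadjusted limma p under 0.05 there were 1020 probes. Of these, 421 were higher in frozen embryos (1.84% of those tested) and 599 were lower (2.62%). They included the brightest probe of 1 chain gene, UQCRB, on the higher side. The mean reached 1.5-fold in either direction in 1 of the 54 genes, COX7B2, and in 155 of the 6772 named genes (2.29%).

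The arrays differed from each other more than the means differed from 0. The 54 genes had a median log2 ratio of -0.10 on replicate 1, while it was 0.19 on replicate 2 and 0.04 on replicate 3. Over all 6772 named genes the medians were -0.08, 0.04 and 0.02. The median of the gene means was 0.04 for the chain and -0.01 for all named genes. On replicate 1, 34 of the 54 genes lay below 0, on replicate 2 only 10 did, and on replicate 3 there were 21. These were 63.0%, 18.5% and 38.9%, against 58.1%, 43.4% and 46.5% of all 6772 named genes. With the sign of replicate 2 turned, the median of the chain was -0.07, and 23 of the 54 genes changed the sign of their mean. For complexes I, II, III, IV and V the medians of the means were 0.04, 0.04, 0.06, 0.10 and 0.01, and with replicate 2 turned they were -0.05, 0.01, -0.13, -0.01 and -0.20.

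**Figure D1:**
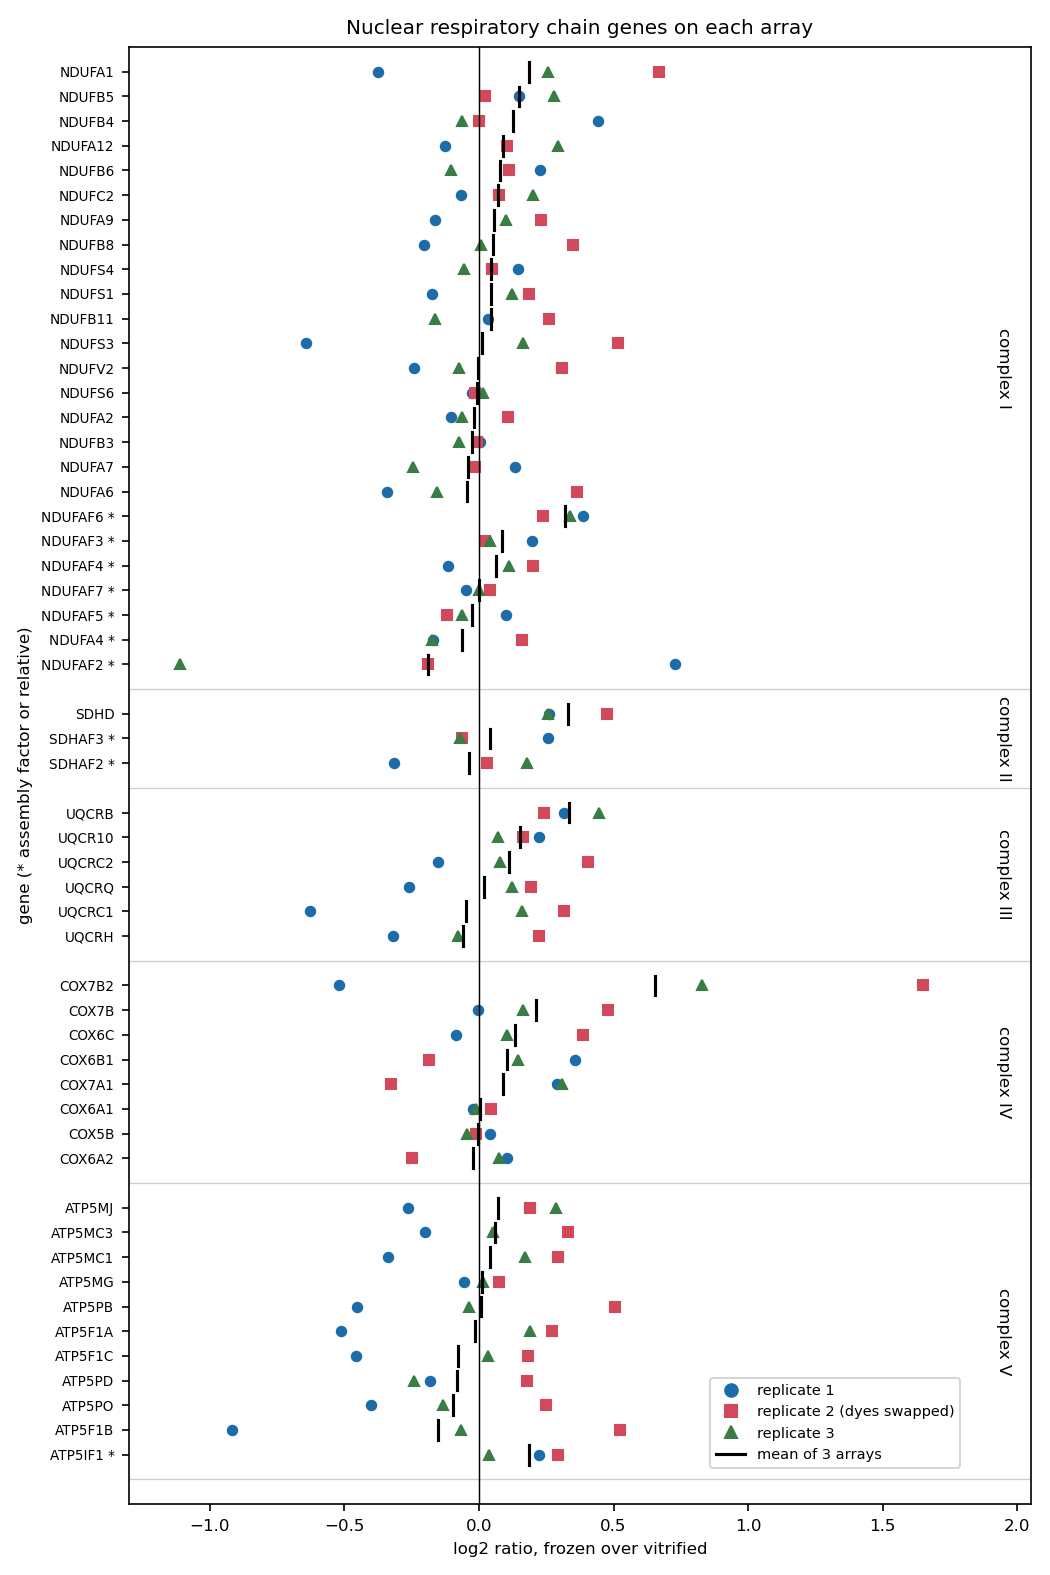
Log2 ratio of frozen over vitrified embryos for 53 of the 54 chain genes, by complex, with 1 symbol per array and a black bar for the mean of 3 arrays. The ratios of replicate 1 lie mostly left of 0 and those of replicate 2 mostly right of it, most plainly in complex V.

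Of the 54 genes, 7 lay above 0 on all 3 arrays, and 0 lay below 0 on all 3. Among all named genes 10.7% lay above 0 on all 3 arrays and 11.6% below. The 7 genes were NDUFB5, NDUFAF3 and NDUFAF6 of complex I, SDHD of complex II, UQCR10 and UQCRB of complex III, and ATP5IF1. Another pattern, over replicates 1 and 2 only, was counted as well. A ratio below 0 on replicate 1 together with one above 0 on replicate 2 was found in 33 of the 54 genes (61.1%), against 2737 of all 6772 named genes (40.4%). Across the 54 genes the ratios of replicates 1 and 2 had a Pearson correlation of -0.55, and across all named genes of -0.38. If the sign of replicate 2 is turned, the same 33 genes lie below 0 on both arrays, and the correlations are 0.55 and 0.38. In that case 3 of the 54 genes lie above 0 on all 3 arrays and 11 below. Of all 6772 named genes, 779 then lie above 0 on all 3 arrays and 1029 below. These are descriptions over genes that share 2 arrays, not independent replicates.

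**Figure D2:**
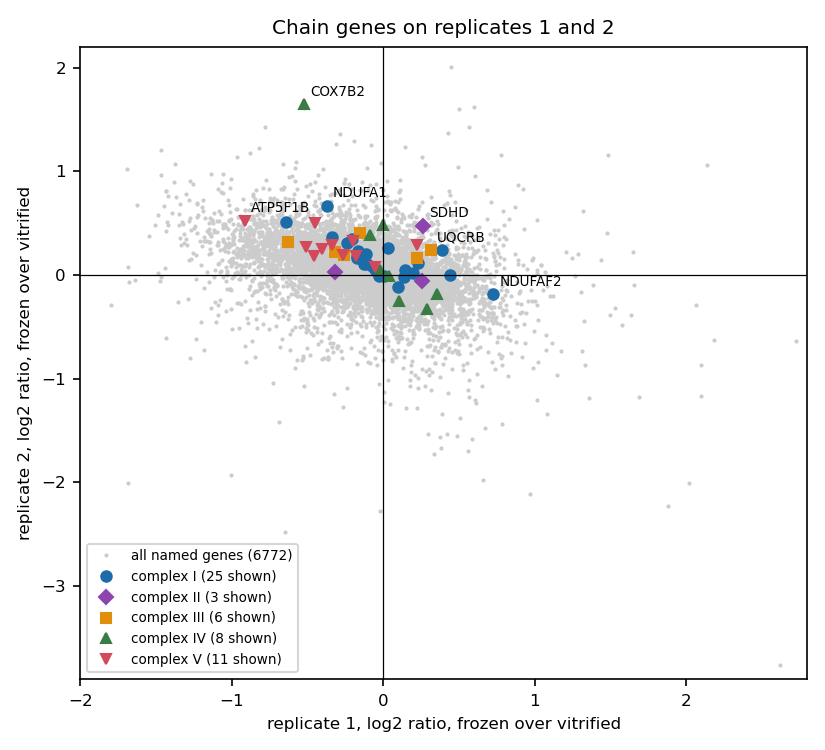
Log2 ratio of frozen over vitrified embryos on replicate 2 (vertical) against replicate 1 (horizontal), with 53 of the chain genes coloured by complex over all 6772 named genes in grey. The genes of complex V, except ATP5IF1, lie at upper left, below 0 on replicate 1 and above 0 on replicate 2, with ATP5MG close to 0 on both. COX7B2 stands above all other chain genes on replicate 2.

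Complex I takes electrons from NADH through a flavin and a row of iron-sulfur clusters. Its 26 genes had medians of -0.06, 0.11 and -0.02 on replicates 1, 2 and 3, and 0 of them passed the adjusted threshold. The 4 core subunits measured, those conserved from bacteria, stood lower on replicate 1 than the 15 accessory ones. The core medians were -0.44, 0.30 and 0.04 on replicates 1, 2 and 3, and the accessory medians were -0.03, 0.11 and -0.06. All 4 core subunits lay below 0 on replicate 1 and above 0 on replicate 2.

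Of the core subunits, 3 are described here, and each lay below 0 on replicate 1 and above 0 on replicate 2. NDUFS3, a subunit of the arm that stands in the matrix, had ratios of -0.64, 0.52 and 0.16. NDUFV2, an iron-sulfur subunit of the NADH-oxidising part, had -0.24, 0.31 and -0.08. NDUFS1, the subunit with most iron-sulfur clusters, had -0.18, 0.18 and 0.12. None of the 3 kept 1 sign over the arrays. On replicate 1 the signal of NDUFS3 was 14.12 in frozen and 14.77 in vitrified embryos, and on replicate 3 it was 14.40 in frozen and 14.24 in vitrified embryos. That of NDUFV2 was 13.97 in frozen and 14.21 in vitrified embryos on replicate 1, and 13.87 in frozen and 13.94 in vitrified embryos on replicate 3. That of NDUFS1 was 14.01 in frozen and 14.18 in vitrified embryos on replicate 1, and 13.95 in frozen and 13.82 in vitrified embryos on replicate 3. All 3 were thus brighter in the vitrified channel on replicate 1.

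Among the accessory subunits the highest mean was that of NDUFA1, a small membrane subunit encoded on the X chromosome in human and mouse. Its ratios were -0.37, 0.67 and 0.26 on replicates 1, 2 and 3, so that replicate 1 went against the other arrays. Its mean was -0.26 with the sign of replicate 2 turned, when NDUFB5 and NDUFB4, each at 0.13, were the highest. The log2 signal was 15.04 in frozen and 15.41 in vitrified embryos on replicate 1, and 14.79 in frozen and 14.54 in vitrified embryos on replicate 3. All 5 probes gave nearly the same ratios, between -0.38 and -0.34 on replicate 1 and between 0.67 and 0.72 on replicate 2. The array's coordinates place 3 of these probes on chromosome X and 2 on chromosome 8. The brightest of them is printed with the bases common to all 5 probes in capitals. In the array's own coordinates, for which the sources used here name no build, it is placed at chrX:68572290-68576349 on the plus strand, a span longer than the probe itself.
NDUFA1: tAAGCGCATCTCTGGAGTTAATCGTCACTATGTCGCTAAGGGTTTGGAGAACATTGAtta

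NDUFB5, another membrane-arm accessory subunit, was above 0 on all arrays with 0.15, 0.02 and 0.28. Its signal was 14.32 in frozen and 14.17 in vitrified embryos on replicate 1, and 13.79 in frozen and 13.51 in vitrified embryos on replicate 3. NDUFB4 was high on replicate 1 alone, with 0.44, 0.00 and -0.06. At the other end, NDUFA6 had -0.34, 0.36 and -0.16, and NDUFA7 had 0.13, -0.02 and -0.24. The means of the 15 accessory subunits ran from -0.04 to 0.18. At the brightest probes NDUFS6 and NDUFB3 were the steadiest, with ratios between -0.03 and 0.01 and between -0.08 and 0.00. Other probes were less steady, as 1 of NDUFS6 had 0.03, -0.09 and 0.13 and 1 of NDUFB3 had 0.04, 0.13 and -0.13.

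The 6 assembly factors of complex I had medians of 0.15, 0.03 and 0.02 on replicates 1, 2 and 3. NDUFAF6, needed for the early assembly of complex I, was above 0 on every array with 0.39, 0.24 and 0.34. Its signal was 9.15 in frozen and 8.77 in vitrified embryos on replicate 1, and 9.29 in frozen and 8.95 in vitrified embryos on replicate 3. The mean was 0.32 ± 0.08 (SD, n = 3), and it rests on 1 probe. It came to 0.16 when replicate 2 was turned, and after normexp and loess on replicates 1 and 3 it was 0.20. By limma the unadjusted p was 0.052 and the adjusted p 0.9999. NDUFAF3, which works with NDUFAF4 on the ubiquinone-binding part, had 0.20, 0.02 and 0.04, while NDUFAF4 had -0.12, 0.20 and 0.11. NDUFAF5 and NDUFAF7, which modify core subunits, had means of -0.03 and 0.00.

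NDUFAF2, a relative of the subunit NDUFA12 that helps to attach the NADH-oxidising part, differed most between arrays within complex I. Its ratios were 0.73, -0.19 and -1.11 on replicates 1, 2 and 3. The log2 signal was 9.40 in frozen and 8.68 in vitrified embryos on replicate 1, and 7.88 in frozen and 8.99 in vitrified embryos on replicate 3. The 2 arrays of the same dye orientation therefore pointed in opposite directions. All 5 overlapping probes gave this pattern, from 0.64 to 0.75 on replicate 1 and from -1.19 to -1.07 on replicate 3. The spread over arrays, 1.84, exceeded the widest spread over its probes on 1 array, 0.13. Its brightest probe is printed with the bases shared by all 5 in capitals, and lies at chr11:77189470-77189529 on the plus strand.
NDUFAF2: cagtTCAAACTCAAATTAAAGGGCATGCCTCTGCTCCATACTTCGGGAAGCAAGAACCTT

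NDUFA4, listed with complex I by symbol, had -0.17, 0.16 and -0.17. Its signal was 15.68 in frozen and 15.85 in vitrified embryos on replicate 1, and 15.20 in frozen and 15.37 in vitrified embryos on replicate 3.

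Complex II, succinate dehydrogenase, also belongs to the citric acid cycle and has no subunit encoded in mitochondrial DNA. It was measured through 1 subunit and 2 assembly factors. SDHD, a membrane anchor that holds haem and takes part in the ubiquinone site, was above 0 on every array with 0.26, 0.48 and 0.26. The log2 signal was 14.63 in frozen and 14.37 in vitrified embryos on replicate 1, and 14.24 in frozen and 13.98 in vitrified embryos on replicate 3. The mean was 0.33 ± 0.13 (SD, n = 3), with an unadjusted limma p of 0.052 and an adjusted p of 0.9999. With the sign of replicate 2 turned the mean was 0.01.

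SDHD was read by 7 probes that fall in 2 sets. The brightest probe and 1 other were designed on expressed sequence tags, and the array's coordinates place them on chromosome 9. The other 5 were designed on a transcript and are placed on chromosome 1. The 5 transcript probes had ratios of 0.02 to 0.07 on replicate 1, 0.41 to 0.47 on replicate 2 and 0.10 to 0.16 on replicate 3. Their means, 0.20 to 0.21, lay below the 0.27 and 0.33 of the tag probes. Whether both sets read 1 gene was not tested, so the value of SDHD is uncertain. The brightest transcript probe is printed, with the bases shared by those 5 in capitals, and is placed at chr1:104273291-104273350 on the minus strand.
SDHD: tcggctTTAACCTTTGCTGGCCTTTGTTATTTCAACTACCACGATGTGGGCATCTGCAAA

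SDHAF2, which helps to attach the flavin to SDHA, had ratios of -0.32, 0.03 and 0.18. Its signal was 10.69 in frozen and 11.01 in vitrified embryos on replicate 1, and 10.77 in frozen and 10.59 in vitrified embryos on replicate 3. SDHAF3, which helps with the iron-sulfur subunit SDHB, had 0.26, -0.06 and -0.07. Its signal was 11.81 in frozen and 11.55 in vitrified embryos on replicate 1, and 11.12 in frozen and 11.19 in vitrified embryos on replicate 3. Both assembly factors changed sign between arrays, in opposite ways.

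Complex III carries electrons from ubiquinol to cytochrome c. Its 6 genes had medians of -0.21, 0.23 and 0.10 on replicates 1, 2 and 3, and all 6 lay above 0 on replicate 2. UQCRB, a subunit near the ubiquinone site, had the highest mean of the complex. Its ratios were 0.32, 0.24 and 0.44. The log2 signal was 15.92 in frozen and 15.60 in vitrified embryos on replicate 1, and 15.59 in frozen and 15.15 in vitrified embryos on replicate 3. The ratios of the 3 arrays spanned 0.20, and the mean was 0.33 ± 0.10 (SD, n = 3), that is 1.26-fold. The unadjusted limma p was 0.048 and the adjusted p 0.9999. With the sign of replicate 2 turned the mean was 0.17.

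The value of UQCRB depended on the probe. The brightest probe starts at base 364 of an expressed sequence tag. The other 5, on a transcript, start at bases 248 to 252. Those 5 had ratios from -0.07 to 0.03 on replicate 1, from 0.39 to 0.51 on replicate 2 and from 0.12 to 0.22 on replicate 3. Their means ran from 0.18 to 0.22, against 0.33 at the brightest probe. Thus 4 of the 5 transcript probes lay below 0 on replicate 1. The brightest transcript probe is printed, with the bases common to these 5 in capitals, and is placed at chr3:111985205-111985264 on the minus strand.
UQCRB: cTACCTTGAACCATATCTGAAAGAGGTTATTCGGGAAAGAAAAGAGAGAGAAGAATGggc

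**Figure D3:**
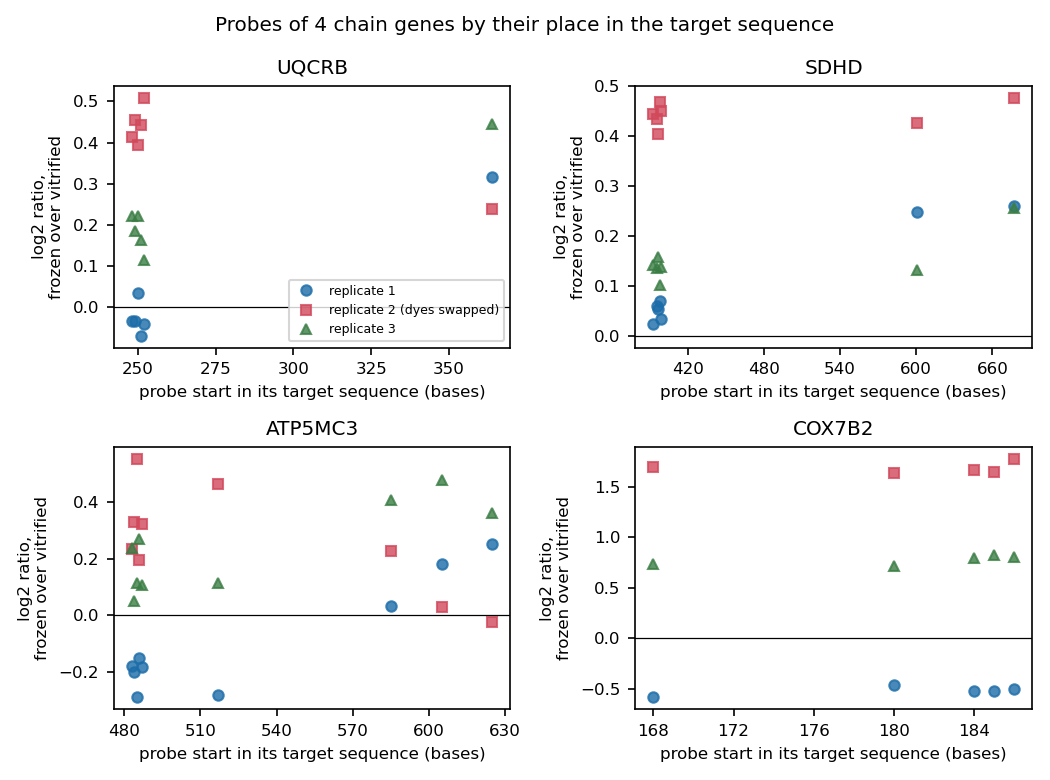
Log2 ratio of frozen over vitrified embryos (vertical) for every probe of UQCRB, SDHD, ATP5MC3 and COX7B2, against the base of its target sequence at which the probe starts (horizontal), with 1 colour per array. The last probe of UQCRB and the last 3 of ATP5MC3 stand apart from the earlier ones, and the 5 probes of COX7B2 gave close values on each array. Starts on different target sequences of 1 gene are not on 1 scale.

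UQCR10, a small subunit, was above 0 on every array with 0.22, 0.16 and 0.07. Its signal was 16.13 in frozen and 15.91 in vitrified embryos on replicate 1, and 15.75 in frozen and 15.68 in vitrified embryos on replicate 3. Among its 5 probes, however, ratios ran from -0.04 to 0.22 on replicate 2 and from -0.03 to 0.12 on replicate 3. UQCRC2 and UQCRC1, the large core proteins on the matrix side, had -0.15, 0.41 and 0.08, and -0.63, 0.32 and 0.16. On replicate 1 the signal of UQCRC1 was 12.93 in frozen and 13.56 in vitrified embryos, while on replicate 3 it was 12.85 in frozen and 12.69 in vitrified embryos. The signal of UQCRC2 was 13.93 in frozen and 14.09 in vitrified embryos on replicate 1, and 14.07 in frozen and 13.99 in vitrified embryos on replicate 3. Both core proteins thus changed sides between these arrays. UQCRQ had -0.26, 0.19 and 0.12, and UQCRH, the hinge protein between cytochrome c1 and cytochrome c, had -0.32, 0.22 and -0.08. These 4 genes lay below 0 on replicate 1 and above 0 on replicate 2. The signal of UQCRQ was 16.39 in frozen and 16.65 in vitrified embryos on replicate 1, and 16.42 in frozen and 16.30 in vitrified embryos on replicate 3. That of UQCRH was 15.57 in frozen and 15.89 in vitrified embryos on replicate 1, and 15.40 in frozen and 15.47 in vitrified embryos on replicate 3.

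Complex IV, cytochrome c oxidase, passes electrons to oxygen. Its 8 measured genes had medians of 0.02, 0.02 and 0.12 on replicates 1, 2 and 3, with 4, 4 and 2 genes below 0. COX7B2 had the largest mean and the largest spread of the 54 genes in the direction used here. It is a relative of the subunit COX7B and is known mainly from human testis. Its ratios were -0.52, 1.65 and 0.83. The log2 signal was 11.57 in frozen and 12.09 in vitrified embryos on replicate 1, and 12.14 in frozen and 11.31 in vitrified embryos on replicate 3. Replicates 2 and 3 were thus higher in frozen embryos and replicate 1 lower. The mean was 0.65 ± 1.1 (SD, n = 3), 1.57-fold, with an unadjusted limma p of 0.16 and an adjusted p of 0.9999.

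Replicate 1 decided the call of COX7B2. Without it the mean of the other 2 arrays was 1.24, and the adjusted limma p was 0.018, the only one under 0.05 among the 54 genes. In the same fit of 2 arrays 796 of the 22839 probes had an adjusted p under 0.05, of which 243 were higher in frozen embryos (1.06%). With the sign of replicate 2 turned, the mean of COX7B2 over 3 arrays was -0.45, smaller in size than the -0.50 of ATP5F1B. All 5 of its probes showed the same pattern. They ranged from -0.58 to -0.46 on replicate 1, from 1.64 to 1.77 on replicate 2 and from 0.72 to 0.83 on replicate 3. The probes start within bases 168 to 186 and overlap, so they are repeated readings of 1 stretch. The brightest is printed with the 42 bases shared by all 5 in capitals, and lies at chr2:35238759-35238818 on the minus strand.
COX7B2: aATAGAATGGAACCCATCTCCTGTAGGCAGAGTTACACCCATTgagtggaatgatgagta

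COX7B itself, whose probe shares at most 5 bases in a row with any probe of COX7B2, had ratios of 0.00, 0.48 and 0.16. Its signal was 15.63 in frozen and 15.64 in vitrified embryos on replicate 1, and 15.32 in frozen and 15.15 in vitrified embryos on replicate 3. COX6C, a small membrane subunit, had -0.09, 0.39 and 0.10, and its brightest probe is placed on chromosome 7 while the other 5 are placed on chromosome 3. These 5 had means of 0.02 to 0.06, against 0.13 at the brightest. The signal of COX6C was 15.79 in frozen and 15.87 in vitrified embryos on replicate 1, and 15.38 in frozen and 15.28 in vitrified embryos on replicate 3. COX5B, the zinc-binding subunit on the matrix side, was nearly level with 0.04, -0.01 and -0.04. Its signal was 16.12 in frozen and 16.08 in vitrified embryos on replicate 1, and 15.99 in frozen and 16.03 in vitrified embryos on replicate 3. COX6A1, the general form of subunit 6A, was also nearly level with -0.02, 0.05 and -0.01. Its signal was 16.27 in frozen and 16.30 in vitrified embryos on replicate 1, and 16.35 in frozen and 16.36 in vitrified embryos on replicate 3.

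The forms of complex IV subunits known from heart and skeletal muscle gave a different order of arrays. COX6A2 had 0.11, -0.25 and 0.07, and COX7A1 had 0.29, -0.33 and 0.31. COX6B1, not a muscle form, had 0.35, -0.19 and 0.15. At the brightest probes of these 3 genes replicate 2 was below 0 and replicates 1 and 3 above it. The 3 overlapping tag probes of COX6B1 shared this order, but its transcript probe had -0.11, 0.21 and 0.15. The signal of COX6A2 was 7.19 in frozen and 7.09 in vitrified embryos on replicate 1, and 7.42 in frozen and 7.34 in vitrified embryos on replicate 3.

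Complex V has a rotating F1 head, where ATP is made, and an Fo part in the membrane. Its subunits lay on 1 side of 0 on each of replicates 1 and 2. All 10 of its subunits lay below 0 on replicate 1 and all 10 above 0 on replicate 2, while 4 were below and 6 above 0 on replicate 3. Of all named genes 58.1% lay below 0 on replicate 1 and 43.4% on replicate 2. The share below 0 on replicate 1 and above 0 on replicate 2 was 40.4% of all named genes. These counts are of the brightest probe of each gene. Other probes of ATP5MG and ATP5MC3, given below, lay above 0 on replicate 1, as did a dim probe of ATP5PO. Some probes of these genes also lay below 0 on replicate 2. Among them was a bright probe of ATP5PO, at a log2 signal of 15.83, with -0.33, -0.01 and 0.09. With the inhibitor included, the medians were -0.34, 0.27 and 0.03 on replicates 1, 2 and 3, and the median of the means was 0.01. With the sign of replicate 2 turned the median of the means was -0.20. The means of the 10 subunits ran from -0.15 to 0.07, and 0 of them kept 1 sign over the arrays. After turning the sign of replicate 2, all 10 lay below 0 on replicates 1 and 2 at their brightest probes. Of these, 4 lay below 0 on all 3 arrays, namely ATP5F1B, ATP5PB, ATP5PD and ATP5PO. Of all 6772 named genes, 2737 then lay below 0 on replicates 1 and 2, and 1029 on all 3 arrays.

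ATP5F1B, the catalytic beta subunit, had the lowest ratio of the 54 genes on replicate 1. Its ratios were -0.92, 0.52 and -0.07. The log2 signal was 15.43 in frozen and 16.35 in vitrified embryos on replicate 1, and 15.81 in frozen and 15.88 in vitrified embryos on replicate 3. The mean was -0.15 ± 0.72 (SD, n = 3), well within the spread of the arrays. The alpha subunit ATP5F1A had -0.51, 0.27 and 0.19, and its signal was 16.36 in frozen and 16.88 in vitrified embryos on replicate 1, and 16.22 in frozen and 16.03 in vitrified embryos on replicate 3. The gamma subunit ATP5F1C, the shaft that turns inside the head, had -0.46, 0.18 and 0.03. Its signal was 16.05 in frozen and 16.51 in vitrified embryos on replicate 1, and 15.88 in frozen and 15.84 in vitrified embryos on replicate 3. All 3 F1 subunits were low on replicate 1 and above 0 on replicate 2. The probes of the 2 subunits that form the ATP sites are printed because they stand far along their transcripts, starting at bases 1634 and 1312. That of ATP5F1A lies at chr9:87502369-87502428 and that of ATP5F1B at chr4:40143911-40143970, both on the minus strand.
ATP5F1A: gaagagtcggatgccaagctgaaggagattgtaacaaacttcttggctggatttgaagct
ATP5F1B: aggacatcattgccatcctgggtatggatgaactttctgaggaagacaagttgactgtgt

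The stalk that joins head and membrane was read through 3 genes, each below 0 on replicate 1 and above 0 on replicate 2. ATP5PO, the subunit at the top of the stalk, had -0.40, 0.25 and -0.13, with a signal of 15.87 in frozen and 16.27 in vitrified embryos on replicate 1 and of 15.73 in frozen and 15.86 in vitrified embryos on replicate 3. ATP5PD, subunit d, had -0.18, 0.18 and -0.24. Its signal was 15.99 in frozen and 16.17 in vitrified embryos on replicate 1, and 15.83 in frozen and 16.07 in vitrified embryos on replicate 3. ATP5PB, subunit b, had -0.45, 0.51 and -0.04.

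In the membrane part, ATP5MC1 and ATP5MC3 encode the same mature subunit c, which forms the rotating ring. ATP5MC1 had -0.34, 0.29 and 0.17, and ATP5MC3 had -0.20, 0.33 and 0.05. The signal of ATP5MC3 was 17.07 in frozen and 17.27 in vitrified embryos on replicate 1, and 17.03 in frozen and 16.98 in vitrified embryos on replicate 3. Its 9 probes split by place, as the plot of probes by place shows. The 6 that start at bases 483 to 517 had -0.29 to -0.15 on replicate 1, 0.19 to 0.55 on replicate 2 and 0.05 to 0.27 on replicate 3. The 3 that start at bases 585 to 625 had 0.03 to 0.25, -0.02 to 0.23 and 0.36 to 0.48. On replicate 1 the later probes thus lay above 0 and the earlier ones below. ATP5MJ, a small membrane subunit, had -0.26, 0.19 and 0.29, and ATP5MG, subunit g, had -0.06, 0.07 and 0.02. The other 3 probes of ATP5MG overlap the brightest and had 0.17, 0.40 and 0.45 on replicate 1, above 0, and 2 of them lay below 0 on replicate 2. The sign of this gene thus depended on the probe. The signal of ATP5MJ was 14.75 in frozen and 15.01 in vitrified embryos on replicate 1, and 14.50 in frozen and 14.21 in vitrified embryos on replicate 3.

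ATP5IF1, which stops the enzyme from breaking down ATP when the gradient falls, was the 1 complex V gene above 0 on every array, with 0.22, 0.29 and 0.04. Its signal was 15.16 in frozen and 14.94 in vitrified embryos on replicate 1, and 14.63 in frozen and 14.59 in vitrified embryos on replicate 3. The mean was 0.18 ± 0.13 (SD, n = 3), with an unadjusted limma p of 0.22 and an adjusted p of 0.9999. With the sign of replicate 2 turned the mean was -0.01.

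**Figure D4:**
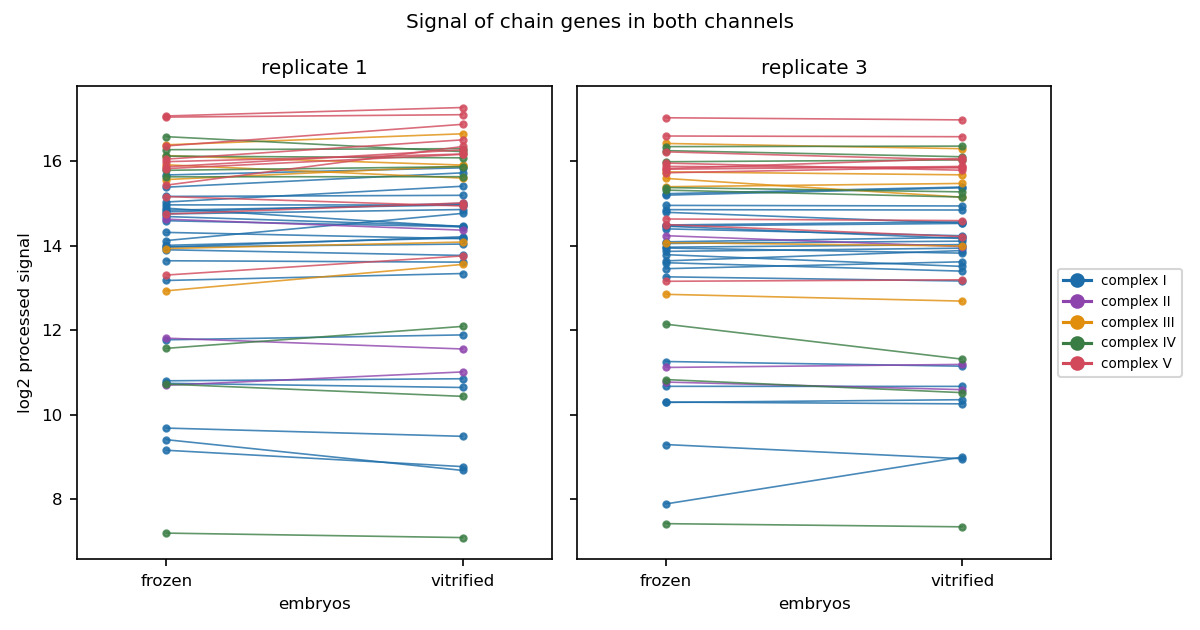
Log2 processed signal of 53 chain genes in the frozen channel (left) and the vitrified channel (right) on replicates 1 and 3, coloured by complex. Lines of complex V, except that of ATP5IF1, slope upward to the vitrified side on replicate 1, and 8 of these 10 lie closer to level on replicate 3, the exceptions being ATP5PD and ATP5MJ. Only the 2 ends of 1 line can be compared, since levels of different probes are not on 1 scale.

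The ratios were set beside the start of each gene's brightest probe, although starts on different target sequences are not on 1 scale. Over the 11 complex V genes this start had a rank correlation of -0.85 with the ratio of replicate 1, over all 54 genes of -0.31, and over all named genes of -0.01. In complexes I, III and IV it was -0.23, -0.20 and 0.05. For complex V it was 0.29 on replicate 2 and -0.26 on replicate 3. The GC content and signal of the complex V probes had rank correlations of -0.18 and 0.12 with the ratio of replicate 1. The 17 genes whose probe starts at base 500 or later had medians of -0.24, 0.26 and 0.08 on replicates 1, 2 and 3. The 37 genes with an earlier start had -0.03, 0.11 and 0.04. In 17 genes with probes at least 60 bases apart on 1 target sequence, the probe nearer the 3′ end was the higher one in 10 genes on replicate 1, in 10 on replicate 2 and in 8 on replicate 3. The differences of the 3′ probe from the 5′ probe had medians of 0.03, 0.00 and -0.04. Over 212 transcripts of the whole value table with probes at least 500 bases apart, the same difference had medians of 0.24, -0.13 and -0.06. The part of probe position in the pattern of complex V was not tested.

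At the median, probes of 1 gene were closer to each other than arrays were. Many such probes overlap, as those of NDUFAF2 at bases 370 to 374 and of NDUFB5 at bases 531 to 535. Overlapping probes are repeated readings of 1 stretch, so a small span among them says little about the whole transcript. In the 33 genes with at least 3 probes, the ratios of a gene's probes spanned a median of 0.11 on replicate 1, 0.12 on replicate 2 and 0.13 on replicate 3. The ratios over the 3 arrays spanned a median of 0.40, and in 23 of the 33 genes more than the probes did on any array. ATP5PO was among the exceptions. One of its probes, starting at base 476, had 0.52, -0.25 and 0.07, but at a log2 signal of only 7.2. The probe starting at base 579, at a signal of 15.8, had -0.33, 0.18 and -0.11.

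Neighbouring mitochondrial gene groups were set beside the chain. The 16 measured genes of the citric acid cycle and pyruvate dehydrogenase, which feed it with electrons, had medians of -0.30, 0.30 and 0.18 on replicates 1, 2 and 3. On replicate 1, 14 of the 16 lay below 0 (87.5%), and on replicate 2, 15 lay above. Of all 6772 named genes, 58.1% lay below 0 on replicate 1 and 3835 above 0 on replicate 2. Both signs together were found in 14 of the 16 genes (87.5%) and in 40.4% of all named genes. CS, citrate synthase, had -0.19, 0.43 and 0.49, and PDHA1, of pyruvate dehydrogenase, had -0.29, 0.66 and 0.40. The 42 mitochondrial ribosomal protein genes, which translate the chain subunits encoded in mitochondrial DNA, had -0.03, 0.04 and 0.08. The 36 cytosolic ribosomal protein genes had -0.04, 0.04 and -0.10. None of the genes in these lists passed the adjusted threshold.

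**Figure D5:**
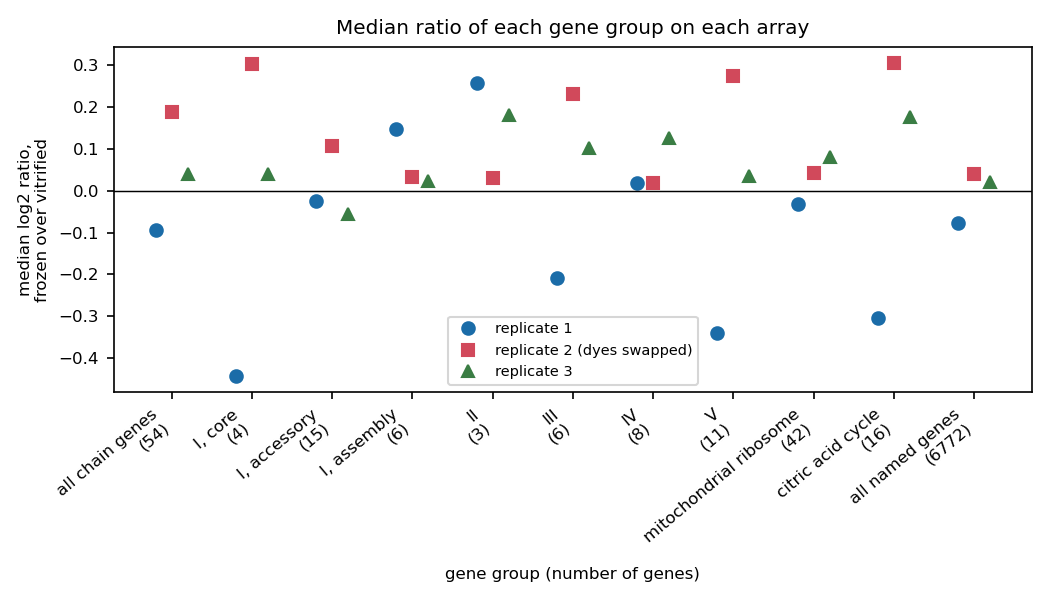
Median log2 ratio of frozen over vitrified embryos (vertical) of each gene group on each array, with the number of genes under each name. Complex I core, complex III, complex V and the citric acid cycle are lowest on replicate 1 and highest on replicate 2. The same order holds for all chain genes (-0.10, 0.19 and 0.04) and for all 6772 named genes (-0.08, 0.04 and 0.02).

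The 31 measured assembly and maturation factors of all complexes had medians of -0.01, 0.02 and 0.03. BCS1L, which installs the iron-sulfur protein of complex III, had -0.09, -0.19 and -0.21, and OXA1L, which inserts proteins into the inner membrane, had -0.10, -0.11 and -0.22. The 12 genes of electron carriers and coenzyme Q synthesis had -0.19, 0.03 and 0.06, with 1 gene, COQ2, at an unadjusted limma p of 0.048 (adjusted p 0.9999). COQ2 attaches the side chain of coenzyme Q and had -0.14, -0.45 and -0.52. COQ5, a methyltransferase of the same synthesis, had -0.74, -0.19 and 0.10.

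The 12 genes of mitochondrial biogenesis and DNA expression had 0.01, 0.02 and 0.14. TFB2M, a mitochondrial transcription factor, had 0.08, 0.72 and 0.41, and PPARGC1A, a coactivator of genes of oxidative metabolism, had 0.36, 0.41 and 0.07. The 8 carriers and channels had -0.36, 0.17 and 0.16. UCP2, an inner membrane carrier, had 0.26, 0.18 and 0.27, and CKMT2, a mitochondrial creatine kinase, had -0.43, 0.78 and 1.13. Of the chain genes encoded in mitochondrial DNA, 0 were measured here.

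Markers of the embryo's cell types were measured in part. Of 10 trophoblast markers 5 were measured, with medians of -0.16, 0.24 and 0.05 on replicates 1, 2 and 3. Their summed intensities were 14038 in frozen and 21279 in vitrified embryos on replicate 1, and 21202 in frozen and 21362 in vitrified embryos on replicate 3. KRT8, the brightest of the 5 at a log2 signal of 13.97, weighs most in these sums and had -0.74, 0.37 and -0.10. GATA3 had -0.04, 0.56 and 0.76, and HAND1 had -0.16, -0.32 and -0.35. TFAP2A had 0.59, 0.03 and 0.05, and TFAP2C had -0.31, 0.24 and 0.36. Of 14 hypoblast markers 10 were measured, with medians of -0.02, -0.75 and -0.995. Their sums were 4069 in frozen and 3422 in vitrified embryos on replicate 1, and 3877 in frozen and 9189 in vitrified embryos on replicate 3. COL4A2 had -0.43, -0.51 and -0.80, and APOB had -0.27, -0.81 and -1.88. On replicate 1, however, 5 of the 10 lay above 0, and these, named after their values were seen, were RBP4 at 0.66, DKK1 at 0.59, APOA1 at 0.51, COL4A1 at 0.30 and LAMC1 at 0.09. Of 10 epiblast markers 4 were measured, with medians of -0.45, -0.21 and -0.30. Their sums were 8326 in frozen and 12307 in vitrified embryos on replicate 1, and 6751 in frozen and 12487 in vitrified embryos on replicate 3. POU5F1, a transcription factor of pluripotent cells, had -0.75, -0.52 and -1.62, and ETV4 had -1.04, -0.06 and -0.63. Both lay below 0 on every array, and neither passed the adjusted threshold of limma, with adjusted p of 0.83 and 0.9999. ETV4 was dim, at a log2 signal of 5.61. The other epiblast markers measured changed sign between arrays, DPPA5 with -0.15, 0.13 and 0.42 and LIN28A with -0.02, -0.36 and 0.03. None of the measured markers was at 0, and their part in the ratios of the chain genes was not tested.

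Other sources of RNA were covered by few markers. Of 7 markers of the recipient's uterus 2 were measured, with sums of 601 in frozen and 943 in vitrified embryos on replicate 1, and of 175 in frozen and 196 in vitrified embryos on replicate 3. HOXA11 had -0.30, -0.01 and -0.9998, and SCGB1A1, the uterine secretory protein uteroglobin, had -0.67, -0.62 and 0.13. Of 6 blood and immune markers 3 were measured, with sums of 322 in frozen and 279 in vitrified embryos on replicate 1, and of 422 in frozen and 380 in vitrified embryos on replicate 3. S100A9 had 0.54, -0.15 and 0.25, and CD14 had -0.07, -0.24 and -0.01. Of 8 red cell markers 1 was measured, the haem synthesis enzyme ALAS2, with 0.34, -1.73 and -1.21.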

How the data were processed

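Total RNA of day 6 rabbit embryos was labelled with Cy3 and Cy5 and hybridised to 3 Agilent arrays. Agilent Feature Extraction 10.10.1.1 read the images, per the file headers. The deposited scanner files of replicates 1 and 3 hold processed intensities (background-subtracted and dye-normalized) and a log10 ratio. The scanner file of replicate 2 was not used here. The deposited value table has 1 column of log2 ratios per array and states no scale, centring or direction. On replicates 1 and 3 it equalled log2 of processed red over green, frozen over vitrified, within 3e-06. Its column medians were -0.015, 0.021 and 0.017 and its SDs over probes 0.467, 0.342 and 0.354. It has 0 other columns of sample values. How its probes were chosen from the array is not stated in the sources used here. Of its 22865 rows, 26 are control probes.

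Of the 22839 other probes, 14423 were named from the RefSeq table of the rabbit (assembly mOryCun1.1), 8632 by accession, 5556 by gene identifier and 235 by symbol. Another 26 had several genes and were not named. Each ratio was tested against 0 by the lmFit and eBayes functions of limma 3.58.1 under R 4.3.3, adjusted by Benjamini-Hochberg over all probes with a threshold of 0.05, and the test was tried on simulated data. Python 3.11.15 and pandas 2.3.3 served to join tables. Flipping signs exactly over 3 arrays gives a 2-sided p of 0.25 at best, so that test was not run. Genes given with both channels were, in each complex, the 3 highest and 3 lowest means, the catalytic or cofactor-binding core subunits, and any gene of 1 sign with an unadjusted p under 0.05. From each other list the 2 genes with the smallest unadjusted p were named. Some chain genes outside that rule are named as well, and 1 gene that the rule takes is not reported here. The members and lists were chosen with earlier results of these data known. Alternatives covered the direction of replicate 2, each replicate left out, normalization, scaling, probe choice and filters.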

Additional observations from a re-analysis of the deposited data

How the results depend on the processing

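In every alternative but one, 0 probes and 0 chain genes had an adjusted limma p under 0.05, the exception being the fit without replicate 1. It called 796 probes and 1 chain gene, so the counts ranged from 0 to 796 and from 0 to 1 when 1 replicate was left out. The median of the 54 genes, 0.04, stayed within the spread between arrays in all alternatives, which gave -0.067 to 0.12, so its sign was not stable. Turning the sign of replicate 2 gave complex I a median of -0.048, and normexp and loess on replicates 1 and 3 gave -0.054. For complex IV these 2 settings gave -0.012 and 0.20, and leaving out 1 replicate moved its median of 0.098 between 0.0038 and 0.085. The median of complex II was 0.33 without the assembly factors, which leaves SDHD alone. The number of genes of 1 sign was 7 over 3 arrays and 14 after turning the sign of replicate 2. Over 2 arrays it was 23 after normexp and loess, 21 from the scanner signals and between 12 and 35 when 1 replicate was left out, where fewer arrays alone allow more genes of 1 sign. Among single genes, COX7B2 passed without replicate 1, with a mean of 1.24. Of the 54 genes, 23 changed sign with replicate 2 turned, 16 after normexp and loess, 16 from the scanner signals and 8 with base composition removed. Without replicate 1, 2 or 3 the numbers were 17, 16 and 12, and in each other alternative between 2 and 7. The scanner signals of replicates 1 and 3 give the same ratios as the value table, so that setting and the fit without replicate 2 are 1 check. The cause was not tested. Each ratio is the difference within 1 array, so the test against 0 is itself paired, and no replicate block could be added to it. Each array's signal in both channels is known for replicates 1 and 3 alone.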
